A study of Mus musculus with 12 samples.

Results

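De novo lipogenesis is the synthesis of fatty acids from sugar, and 10 genes of this pathway were followed across mouse livers that differed in genotype and diet. The genes were Thrsp, Fasn, Acaca, Acly, Me1, Pklr, Srebf1, Mlxipl, Gpam and Lpin1. Every probe set annotated with exactly 1 of these symbols was taken, which gave 20 probe sets of the 22626 tested and 10 of the 12393 genes that a single-symbol probe set measured. Acly had 5 probe sets, Pklr 3, Thrsp, Me1, Gpam and Lpin1 had a pair each, and Fasn, Acaca, Srebf1 and Mlxipl had 1 each.

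The study measured whole-liver RNA on 12 Affymetrix 430A arrays, each loaded with the pooled RNA of 3 male mice aged 6 to 8 weeks and labelled C57BL/6. There were 4 groups of 3 arrays, made of wild-type mice and mice null for cytochrome P450 reductase (POR, the flavoprotein that hands electrons to microsomal P450 enzymes). All mice were first kept for 14 days on a powdered RM3 diet free of soya. The control groups remained on it, while the quercetin groups received the same diet for 24 h with 6.2 g of quercetin per kg, or 7 mg for a mouse; quercetin is a flavonol of many plant foods. The promoter or cell type behind the POR-null allele is not given in the sources used here. The Por transcript itself was not analysed here, and the genotypes are those of the sample labels. The shared strain label does not say how closely the backgrounds of the genotypes match, and background and loss of POR cannot be told apart. All p-values measure the spread between pools, not between single mice.

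The deposited values were on a log2 scale, so a difference of 1 is a doubling of signal, and array medians lay between 5.93 and 5.99. The 9 measured hepatocyte markers, among them Alb and Apoa1, had a list mean between 12.5 and 12.8 in every array, near the top of the scale. Each value comes from whole tissue, and fewer cells of a type cannot be told apart from less RNA per cell. A probe set ending in _x_at may bind transcripts of more than 1 gene, and one ending in _a_at is designed to bind several transcripts of the same gene. Levels of different probe sets were used to pick the brightest of a gene and to mark bright or dim signals. They were not read as amounts of different transcripts, since probes differ in affinity.

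In a fed liver, glucose is broken down to pyruvate, the last step of which is made by liver pyruvate kinase (Pklr). Citrate leaves the mitochondrion and is cleaved by ATP citrate lyase (Acly) to acetyl-CoA. Acetyl-CoA carboxylase (Acaca) turns this into malonyl-CoA, and fatty acid synthase (Fasn) builds palmitate from it with NADPH that malic enzyme (Me1) helps to supply. Srebf1 encodes SREBP-1, which responds to insulin and sterols, and Mlxipl encodes ChREBP, which responds to glucose metabolites. Both are known to switch the enzyme genes on. Thrsp encodes Spot 14, a small protein of lipogenic tissues that is strongly induced by carbohydrate and thyroid hormone. Gpam and Lpin1 act downstream, where new fatty acids are joined to glycerol phosphate.

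The sequences upstream of 3 of these genes are shown because Thrsp, Pklr and Fasn were the members that passed a genotype test. Each run holds the 250 bases before a RefSeq transcript start on GRCm38.p6, written 5′ to 3′ on the gene's own strand, with motif matches in capitals. Pklr has a pair of annotated starts, and the downstream one is shown, at chr3:89136373-89136622 on the plus strand. Thrsp is at chr7:97417551-97417800 and Fasn at chr11:120824548-120824797, both on the minus strand.
Pklr: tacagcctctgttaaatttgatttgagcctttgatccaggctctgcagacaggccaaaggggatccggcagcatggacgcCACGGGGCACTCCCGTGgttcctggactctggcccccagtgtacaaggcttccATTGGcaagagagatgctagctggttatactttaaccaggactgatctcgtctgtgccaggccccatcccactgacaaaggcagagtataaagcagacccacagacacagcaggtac
Thrsp: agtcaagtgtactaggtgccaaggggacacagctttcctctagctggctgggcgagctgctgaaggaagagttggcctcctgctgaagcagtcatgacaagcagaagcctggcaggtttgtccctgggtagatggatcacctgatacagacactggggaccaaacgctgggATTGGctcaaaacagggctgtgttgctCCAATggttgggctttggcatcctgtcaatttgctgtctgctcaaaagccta
Fasn: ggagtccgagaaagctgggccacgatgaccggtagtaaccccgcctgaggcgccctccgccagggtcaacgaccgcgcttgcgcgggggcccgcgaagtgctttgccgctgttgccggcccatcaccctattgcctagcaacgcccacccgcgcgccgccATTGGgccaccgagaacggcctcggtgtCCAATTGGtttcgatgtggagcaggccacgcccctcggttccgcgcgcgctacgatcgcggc
In the Pklr run the long capital stretch, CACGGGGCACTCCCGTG, is a pair of E-box-like hexamers 5 bases apart, and the relaxed pattern matches it on both strands. It lies 170 to 154 bases before the start, and the L-type promoter of this gene is the textbook example of a carbohydrate response element, the kind of site that ChREBP binds. The shorter stretches, ATTGG or CCAAT, are the NF-Y box on either strand. Thrsp holds the NF-Y box 79 to 75 and 52 to 48 bases before its start. Fasn holds it 3 times, and a pair of these matches overlaps as CCAATTGG.

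Motifs were searched on both strands in windows of 300 bases, from 250 before to 50 after a start, for all 32851 RefSeq windows of 27025 genes. The members had 16 such windows, covering all 10 genes. The relaxed pair (CACGNG and CNCGTG, 5 bases apart) was found in 15 windows, 0.0457% of all, and among the members only in the one of Pklr. This relaxed form was searched after the data had been seen, because the exact pair of CACGTG boxes 5 bases apart occurred in 0 of the 32851 windows. A single CACGTG was present in 7.15% of all windows and, among the members, in 1 window of Mlxipl. The sterol regulatory element core TCACNCCAC was in 1.24% of all windows and in the other window of Mlxipl. The NF-Y box CCAAT was in 37.4% of all windows and in 9 member windows of 8 genes, and the Sp1 box GGGCGG was in 35.7% and in 6 member windows of 5 genes. These are matches of letters, and no binding was measured.

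The first question was how the pathway differed between POR-null and wild-type livers. Thrsp was 4.91-fold higher in POR-null livers on the control diet and 6.53-fold higher on the quercetin diet by its brighter probe set. Pklr was 1.65-fold and 1.80-fold higher by its brightest probe set. The carboxylase Acaca, the citrate lyase Acly, both regulators and both glycerolipid genes did not pass in either comparison, and Fasn passed only in the average over both diets. The call was an adjusted p under 0.05 in limma, with Benjamini-Hochberg adjustment over all 22626 probe sets.

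Counted by probe set, 5 of the 20 were higher in POR-null livers on the control diet, where 0.822% of all probe sets were called higher. None was lower, against 0.336% of all probe sets. On the quercetin diet 5 of 20 were again called higher and 0 lower, against 1.75% and 0.579% of all probe sets. In both cases these were the pair of Thrsp probe sets and the 3 of Pklr, so the counts rest on 2 genes. The members were chosen with earlier results of these data known, so counts beside the shares of all probe sets are descriptions only. Averaged over both diets, Fasn joined them and 6 of 20 were higher and 0 lower, against 4.88% and 2.7% of all probe sets. At an unadjusted p under 0.05, 5 member probe sets were higher and 0 lower on the control diet, and 8 were higher and 0 lower on the quercetin diet. In the average 7 were higher and 2 lower, the lower ones being Mlxipl and a dim Acly probe set. Of all probe sets, 15.8%, 17.0% and 23.0% reached this p in these comparisons, in either direction. The median difference over the 20 probe sets was 0.06 on the control diet and 0.24 on the quercetin diet, beside -0.01 and -0.02 over all probe sets.

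**Figure D1:**
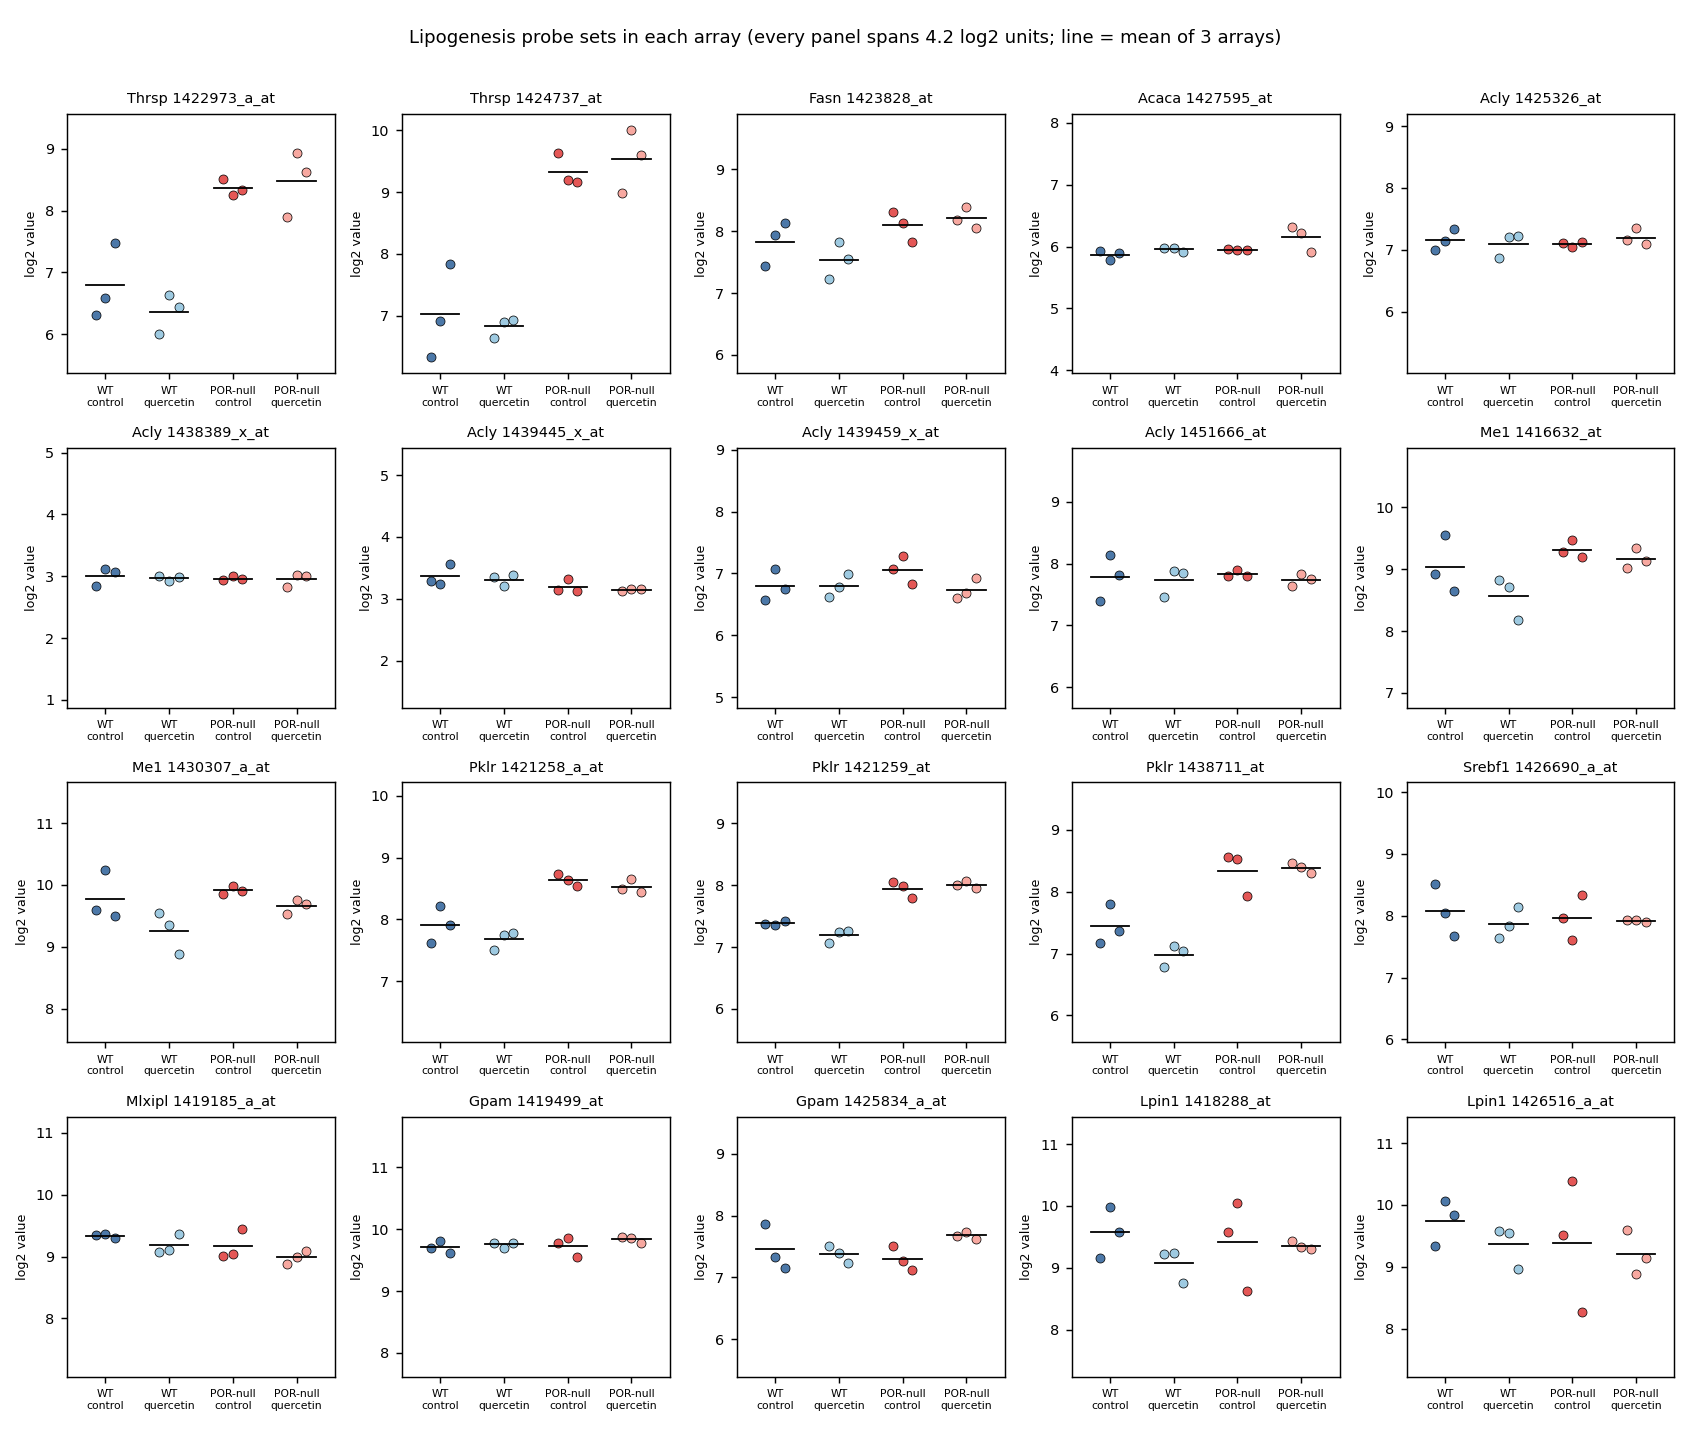
Log2 value (vertical axis) of each of the 20 member probe sets in the 12 arrays, in 4 groups of 3 arrays with a line at each group mean; every panel spans the same number of log2 units but has its own start. Both Thrsp panels and the 3 Pklr panels show all POR-null arrays above all wild-type arrays, and the panel of Lpin1 1426516_a_at shows the widest scatter within groups.

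Neither of the regulators showed a called difference in the fit to all 12 arrays. Srebf1 read 8.51, 8.05 and 7.67 in the wild-type control arrays and 7.96, 7.61 and 8.34 in the POR-null control arrays. With quercetin it read 7.63, 7.83 and 8.15 in wild type and 7.94, 7.92 and 7.90 in POR-null livers. The arrays of all 4 groups overlapped, and the genotype difference was -0.11 ± 0.20 (SE, n = 3 per group) on the control diet and 0.05 ± 0.20 on the quercetin diet. The 95% intervals ran from -0.53 to 0.32 and from -0.38 to 0.48, so differences of that size were not resolved.

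Mlxipl, which encodes ChREBP, read 9.35, 9.36 and 9.30 in wild-type control livers and 9.01, 9.05 and 9.45 in POR-null control livers. With quercetin the values were 9.07, 9.11 and 9.37 in wild type and 8.87, 8.99 and 9.09 in POR-null livers. A single POR-null control array, the third, lay above every wild-type array. The difference was -0.17 ± 0.12 on the control diet and -0.20 ± 0.12 on the quercetin diet, and averaged over diets it was -0.19 ± 0.08 (limma, adjusted p = 0.200). Without POR-null control array 3, Mlxipl was called lower in POR-null livers in this average. The Mlxipl probe set measures transcript and says nothing of the location or activity of ChREBP. Any part of ChREBP in the Pklr difference was not tested.

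Pklr was higher in POR-null livers by each of its 3 probe sets. The brightest, 1421258_a_at, read 7.62, 8.22 and 7.91 in wild-type control livers and 8.73, 8.64 and 8.54 in POR-null control livers. The quercetin arrays gave 7.50, 7.76 and 7.79 in wild type and 8.49, 8.66 and 8.45 in POR-null livers. The lowest POR-null array stood 0.23 above the highest wild-type array. The difference was 0.72 ± 0.13 (SE) on the control diet (limma, adjusted p = 0.0224) and 0.85 ± 0.13 on the quercetin diet (adjusted p = 0.0057).

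The other Pklr probe sets moved the same way by different amounts. Probe set 1421259_at had group means of 7.38 ± 0.03 (SD, n = 3) and 7.94 ± 0.14 in wild-type and POR-null control livers, and 7.19 ± 0.11 and 8.01 ± 0.05 with quercetin. Its differences were 0.56 ± 0.09 (SE; adjusted p = 0.0152) and 0.82 ± 0.09 (adjusted p = 0.000687). Probe set 1438711_at had means of 7.45 ± 0.32 and 8.34 ± 0.36 on the control diet, and 6.98 ± 0.18 and 8.39 ± 0.08 with quercetin. Its differences were the largest of the 3, at 0.89 ± 0.17 (adjusted p = 0.0280) and 1.40 ± 0.17 (adjusted p = 0.00137). None of the 3 overlapped between genotypes.

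The control-diet calls of Pklr rested on few arrays, while its quercetin-diet calls held without any single array. Leaving out POR-null control array 1 raised the adjusted p of the 3 probe sets to 0.123, 0.0857 and 0.156, and leaving out POR-null control array 2 raised it to 0.0724, 0.0551 and 0.106. Without wild-type control array 3, 1421258_a_at and 1438711_at no longer passed (adjusted p = 0.0706 and 0.0907). Without wild-type control array 2, 1421259_at no longer passed (adjusted p = 0.0673). In a fit to the 6 control-diet arrays alone the adjusted p values were 0.104, 0.0970 and 0.124. The size of the difference stayed between 0.51 and 1.10 over all these fits and probe sets.

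Acly and Me1 supply the acetyl-CoA and NADPH that fatty acid synthesis uses. The brightest Acly probe set, 1451666_at, read 7.39, 8.15 and 7.81 in wild-type control livers and 7.80, 7.89 and 7.79 in POR-null control livers. Under quercetin the values were 7.47, 7.88 and 7.85 in wild type and 7.63, 7.83 and 7.76 in POR-null livers. The wild-type control arrays spanned the range of every other group. The genotype difference was 0.05 ± 0.16 (95% interval -0.29 to 0.38) on the control diet and 0.01 ± 0.16 (-0.33 to 0.34) on the quercetin diet. The other 4 Acly probe sets differed by -0.18 to 0.26 on the control diet and by -0.16 to 0.10 on the quercetin diet, and none was called. Of these, 1438389_x_at and 1439445_x_at lay below the median of all values (5.96) and carry little information on the gene. On the quercetin diet the 3 POR-null arrays of 1439445_x_at lay below its 3 wild-type arrays.

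Me1, malic enzyme, lay between the called and the uncalled members. Its brighter probe set, 1430307_a_at, read 9.60, 10.24 and 9.50 in wild-type control livers and 9.86, 9.99 and 9.90 in POR-null control livers. On the quercetin diet it read 9.55, 9.36 and 8.88 in wild type and 9.54, 9.76 and 9.69 in POR-null livers. By this probe set the groups overlapped on both diets, with wild-type control array 2 above every other array. The difference was 0.14 ± 0.18 on the control diet and 0.40 ± 0.18 on the quercetin diet (limma, adjusted p = 0.275). The other probe set, 1416632_at, differed by 0.28 ± 0.20 and by 0.59 ± 0.20 (adjusted p = 0.148). On the quercetin diet its 3 POR-null arrays, at 9.01 to 9.35, lay above its 3 wild-type arrays, at 8.17 to 8.83, and on the control diet the arrays overlapped.

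Averaged over diets, the Me1 differences were 0.27 ± 0.13 (adjusted p = 0.221) and 0.43 ± 0.14 (adjusted p = 0.0794). Without wild-type control array 2 both passed, with adjusted p values of 0.0468 and 0.0149. That array was the highest of its group for both Me1 probe sets. With the pool number as a block, 1416632_at also passed (adjusted p = 0.0254).

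Acaca and Fasn carry out fatty acid synthesis itself. Acaca read 5.93, 5.78 and 5.89 in wild-type control livers and 5.96, 5.95 and 5.94 in POR-null control livers. With quercetin it read 5.98, 5.98 and 5.91 in wild type and 6.32, 6.23 and 5.92 in POR-null livers. These values lay close to the median of all values (5.96). The POR-null control arrays lay just above the wild-type ones, but the difference was only 0.08 ± 0.11 (95% interval -0.15 to 0.31), and on the quercetin diet it was 0.20 ± 0.11 (-0.03 to 0.43).

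Fasn, which makes palmitate, read 7.43, 7.95 and 8.13 in wild-type control livers and 8.31, 8.14 and 7.83 in POR-null control livers. The quercetin arrays gave 7.22, 7.83 and 7.56 in wild type and 8.19, 8.39 and 8.05 in POR-null livers. On the control diet the arrays overlapped. On the quercetin diet all 3 POR-null arrays lay above all 3 wild-type arrays, but how many of all probe sets did so was not counted. The difference was 0.26 ± 0.18 on the control diet (limma, adjusted p = 0.532) and 0.67 ± 0.18 on the quercetin diet (adjusted p = 0.0705).

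Averaged over diets, Fasn was 1.38-fold higher in POR-null livers, a difference of 0.47 ± 0.13 (adjusted p = 0.0424). This call passed in 4 of the 12 fits that left out 1 array, in each of which the omitted array was the third of wild-type control, POR-null control or POR-null quercetin, or the second of wild-type quercetin. In the other 8 the difference lay between 0.37 and 0.49 and the adjusted p reached 0.107, without POR-null control array 1. After quantile normalization the adjusted p was 0.0799. The quercetin-diet difference passed without wild-type control array 1 (adjusted p = 0.0342), with array weights (0.0407) and in a fit to the quercetin-diet arrays alone (0.0288). These were 3 of 19 alternative settings, and in the other 16 it did not pass, with adjusted p values up to 0.241.

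Thrsp, which encodes Spot 14, had the widest gap between genotypes of the 10 genes. Its brighter probe set, 1424737_at, read 6.33, 6.92 and 7.84 in wild-type control livers and 9.63, 9.19 and 9.16 in POR-null control livers. Under quercetin the values were 6.64, 6.90 and 6.94 in wild type and 8.99, 10.01 and 9.60 in POR-null livers. The lowest POR-null array stood 1.16 above the highest wild-type array, which was wild-type control array 3. The difference was 2.30 ± 0.30 on the control diet (limma, adjusted p = 0.00329) and 2.71 ± 0.30 on the quercetin diet (adjusted p = 0.000636), and both passed without any single array.

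The second Thrsp probe set, 1422973_a_at, read 6.31, 6.58 and 7.48 in wild-type control livers and 8.51, 8.25 and 8.34 in POR-null control livers. On the quercetin diet it read 6.01, 6.63 and 6.44 in wild type and 7.90, 8.93 and 8.62 in POR-null livers. The genotypes again did not overlap, and wild-type control array 3 was again the highest wild-type array. The differences were 1.58 ± 0.28 (2.98-fold, adjusted p = 0.0172) and 2.12 ± 0.28 (4.35-fold, adjusted p = 0.0020). The control-diet call was lost without wild-type control array 2 (adjusted p = 0.0943), POR-null control array 1 (0.0888) or POR-null control array 2 (0.0519). It was also lost with a robust variance prior (0.0632) and in the control-diet arrays alone (0.0544), while the difference itself stayed at 1.33 or more.

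**Figure D2:**
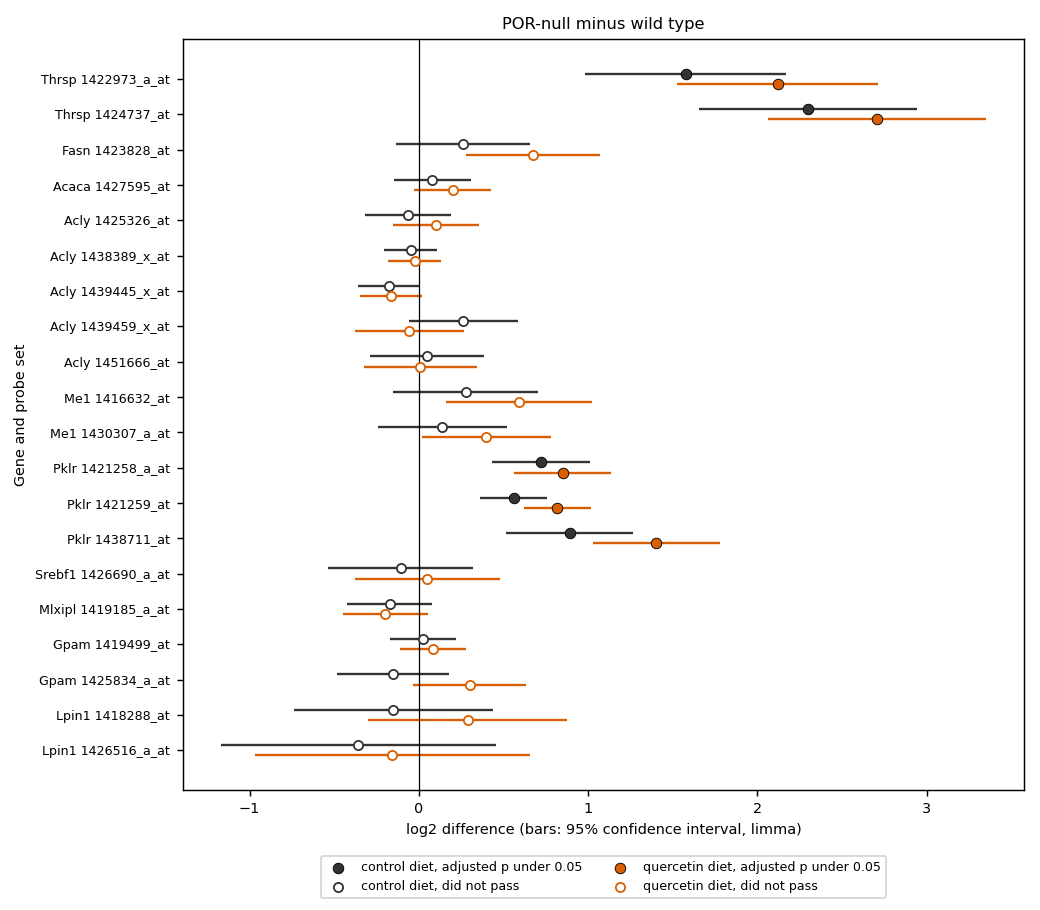
POR-null minus wild-type log2 difference (horizontal axis) for the 20 member probe sets on the control diet (black) and the quercetin diet (orange), with 95% confidence intervals from limma. Filled points passed at an adjusted p under 0.05, and they are the Thrsp and Pklr probe sets on both diets.

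Counting arrays without a model gave the same 5 probe sets. All 6 POR-null arrays lay above all 6 wild-type arrays for both Thrsp probe sets and for the 3 of Pklr, 5 of 20, where 1.92% of all probe sets showed this. The gap between the genotypes ranged from 0.12 for Pklr 1438711_at to 1.16 for Thrsp 1424737_at. For members in which the 3 arrays of a group lay apart from the 3 of another, the share of all probe sets that did so was not counted.

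Gpam and Lpin1 act where fatty acids enter glycerolipids. Gpam encodes the mitochondrial acyltransferase that adds the first fatty acid to glycerol phosphate. Its brighter probe set, 1419499_at, read 9.70, 9.81 and 9.62 in wild-type control livers and 9.78, 9.86 and 9.56 in POR-null control livers. With quercetin it read 9.78, 9.70 and 9.78 in wild type and 9.88, 9.86 and 9.77 in POR-null livers. The genotypes overlapped, and the differences of 0.03 ± 0.09 (95% interval -0.17 to 0.22) and 0.08 ± 0.09 (-0.11 to 0.28) were among the most narrowly bounded of the members. The second probe set, 1425834_a_at, differed by -0.15 ± 0.16 on the control diet and 0.30 ± 0.16 on the quercetin diet, and neither was called. On the quercetin diet its 3 POR-null arrays lay above its 3 wild-type arrays.

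Lpin1 encodes lipin 1, the phosphatidate phosphatase that makes diacylglycerol and also acts with PGC-1 proteins in the nucleus. Probe set 1426516_a_at read 9.34, 10.06 and 9.84 in wild-type control livers and 9.52, 10.39 and 8.26 in POR-null control livers. The quercetin arrays gave 9.59, 9.55 and 8.97 in wild type and 9.60, 8.89 and 9.15 in POR-null livers. The highest and the lowest of the 12 values were both POR-null control arrays, the second and the third. The SD of that group was 1.07, and the SD pooled over the 4 groups, 0.62, was larger than that of 99.6% of all probe sets. The genotype difference of -0.36 ± 0.38 on the control diet had a 95% interval from -1.17 to 0.46, an interval that holds both no change and a fall of 1 log2 unit. On the quercetin diet the difference was -0.16 ± 0.38, with overlapping arrays. The other probe set, 1418288_at, differed by -0.15 ± 0.28 on the control diet and by 0.29 ± 0.28 on the quercetin diet (limma, adjusted p = 0.639). There it read 9.22, 9.24 and 8.75 in wild type and 9.43, 9.34 and 9.31 in POR-null livers, without overlap. The probe sets thus differed in sign on the quercetin diet, and neither was called.

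Ordered by mean level, Thrsp 1424737_at rose from wild-type quercetin (6.83 ± 0.16, SD, n = 3) to wild-type control (7.03 ± 0.76), POR-null control (9.33 ± 0.26) and POR-null quercetin (9.53 ± 0.51). Only the step between wild-type control and POR-null control was called among these neighbours. Pklr 1421258_a_at ran from wild-type quercetin (7.68 ± 0.16) to wild-type control (7.92 ± 0.30), POR-null quercetin (8.53 ± 0.11) and POR-null control (8.64 ± 0.10). Here the step from wild-type control to POR-null quercetin was called (limma, adjusted p = 0.0142), and the steps within a genotype were not. Between POR-null quercetin and wild-type control 5 member probe sets were called, against 7.74% of all probe sets. Between POR-null control and wild-type quercetin 5 were called, against 0.234% of all probe sets. For the 15 member probe sets other than those of Thrsp and Pklr, none of the 6 comparisons between a pair of groups was called.

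The next question was whether quercetin changed the pathway within 24 h. No member probe set was called in wild-type livers, in POR-null livers, in the average of both or in the difference between the responses, and the same was true of all probe sets (0.0% called in each of the 4 comparisons by limma). At an unadjusted p under 0.05, 3 member probe sets were lower in wild type, 1 was higher and 1 was lower in POR-null livers, 2 were lower in the average, and 0 differed in response. Of all probe sets, 8.58%, 6.99%, 9.19% and 6.17% reached this p in these 4 comparisons, in either direction. The fits with other settings also called 0 members in each of these comparisons. Over all probe sets, omitting wild-type control array 1 gave 151 calls for quercetin in wild type, 24 in the average and 1 in the difference between responses, and every other fit gave 4 or fewer in each. The 95% intervals of the members reached 0.16 to 0.81 log2 units to either side of the estimate, with a median of 0.33, so smaller responses could not be resolved. These intervals are not adjusted for the number of probe sets, so larger responses could also go uncalled, as for Me1 1430307_a_at in wild type (-0.52).

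In wild-type livers 18 of the 20 differences lay below 0, with a median of -0.20, while 48.8% of all probe sets lay above 0 with a median of -0.0037. Probe sets of a gene and arrays of a group are shared among these 18, which therefore are not independent. The count was 15 to 18 over the fits that left out 1 array, with 15 reached by omitting array 2 or array 3 of wild-type control, and also array 1 of wild-type quercetin. In POR-null livers 11 of 20 lay below 0, with a median of -0.03, and the count ran from 7 without POR-null control array 2 to 13 when the omitted array was the third of POR-null control, and also the second of POR-null quercetin.

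The lowest p values in wild type belonged to Me1 and Pklr. Me1 1430307_a_at was 9.78 ± 0.40 (SD, n = 3) on the control diet and 9.26 ± 0.34 with quercetin, a difference of -0.52 ± 0.18 (SE; limma, adjusted p = 0.474). Me1 1416632_at differed by -0.47 ± 0.20 (adjusted p = 0.560). Quercetin arrays of wild type lay in the range of, or below, the control arrays for both. Pklr 1438711_at differed by -0.46 ± 0.17 (adjusted p = 0.505), and here all 3 quercetin arrays lay below all 3 control arrays. Thrsp 1424737_at differed by -0.20 ± 0.30 and Fasn by -0.30 ± 0.18, with overlapping arrays.

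In POR-null livers Gpam 1425834_a_at had the lowest p of the members. It read 7.51, 7.26 and 7.12 on the control diet and 7.67, 7.74 and 7.63 with quercetin, without overlap. The difference was 0.38 ± 0.16 (limma, adjusted p = 0.670), and the brighter Gpam probe set differed by 0.10 ± 0.09. Thrsp 1424737_at differed by 0.21 ± 0.30 and Pklr 1421258_a_at by -0.11 ± 0.13 in these livers. The difference between the responses of the genotypes was 0.41 ± 0.43 for Thrsp (adjusted p = 0.884), 0.41 ± 0.26 for Fasn (adjusted p = 0.840) and 0.13 ± 0.19 for Pklr (adjusted p = 0.921). The larger genotype gap seen on the quercetin diet for these genes was therefore not called different from that on the control diet.

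**Figure D3:**
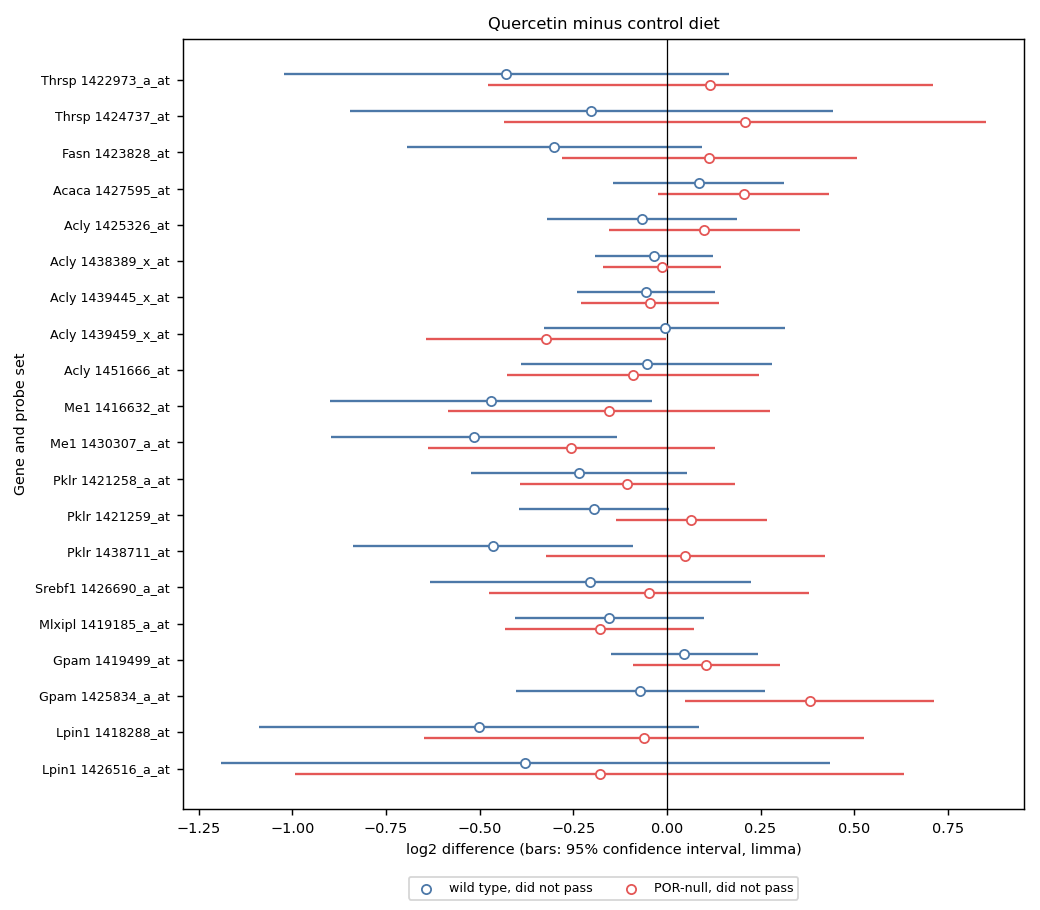
Quercetin minus control log2 difference (horizontal axis) for the 20 member probe sets in wild-type (blue) and POR-null (red) livers, with 95% confidence intervals from limma. No point passed at an adjusted p under 0.05, and 18 of the 20 wild-type points lie to the left of 0.

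How the members varied together within groups was described by correlating the 12 arrays after each group's mean was removed, with the brightest probe set of each gene. The arrays of all pairs are the same and few, so the values are descriptions only. Over the 45 pairs of genes the median r was 0.02, with a range from -0.80 to 0.93. The closest pair was Acly and Pklr (r = 0.93, and 0.85 to 0.97 when any array was left out), although only Pklr was called between genotypes. Fasn correlated with Pklr at 0.77, with Thrsp at 0.72 and with Acly at 0.70, and with each of them r was at least 0.448 when any array was left out. Thrsp and Pklr gave 0.48, which fell to 0.08 without wild-type control array 1, the array in which Thrsp, Fasn, Acly and Pklr were all the lowest of their group.

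The regulators ran with each other and opposite to Lpin1. Srebf1 and Mlxipl had an r of 0.65, and 0.44 without POR-null control array 3. Lpin1 had an r of -0.77 with Srebf1 (-0.89 to -0.67 without any single array) and of -0.80 with Mlxipl (-0.49 without POR-null control array 3). It ran with Gpam at 0.73, a value that fell to 0.31 without that same array. Probe sets of the same gene gave r of 0.95 for Thrsp, 0.95 for Lpin1 and 0.97 for Me1. They gave 0.47 to 0.80 for Pklr, 0.28 for Gpam and -0.06 to 0.75 for Acly. The values for pairs that include Pklr, Gpam or Acly thus belong to the probe set used.

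Genes around the members were read from 7 lists with 108 genes, of which 88 were measured by a single-symbol probe set. A gene was counted by its brightest probe set. The lists were chosen with earlier results of these data known, so their counts beside the shares of all genes are descriptions only. On the control diet 6 of the 88 were higher in POR-null livers and 0 lower, beside 0.92% and 0.323% of all 12393 genes. On the quercetin diet 7 were higher and 1 lower, beside 1.86% and 0.629%, and in the average 17 were higher and 5 lower, beside 5.08% and 2.86%. The median difference of the 88 genes was 0.05, 0.17 and 0.10, and that of all genes was -0.02, -0.03 and -0.02. Quercetin changed 0 of the 88 in either genotype by limma, where 13 in wild type and 8 in POR-null livers had an unadjusted p under 0.05. These were 14.8% and 9.09% of the 88, beside 8.67% and 6.85% of all genes.

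Elongation and desaturation, which lengthen palmitate and insert double bonds, held the most called genes on the control diet, 3 of 11. Elovl6, the elongase that acts on palmitate, was higher by 0.76 ± 0.16 on the control diet and 0.92 ± 0.16 on the quercetin diet. Elovl5, an elongase of polyunsaturated fatty acids, was higher by 1.16 ± 0.14 and 0.66 ± 0.14. Scd1, the main hepatic stearoyl-CoA desaturase, was higher by 1.27 ± 0.22 on the quercetin diet (adjusted p = 0.00859). It reached 0.99 ± 0.15 in the average, where Elovl2, Elovl5, Elovl6 and Scd2 were also called, 5 of 11 in all. Elovl3 went the other way, by -0.26 on the control diet and -1.475 on the quercetin diet (limma, adjusted p = 0.793 and 0.0574). On each diet 9 of the 11 lay above 0.

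Several of these calls depended on single arrays. The control-diet calls of Elovl6 and Elovl2 (0.66 ± 0.14) held in 5 and 4 of the 12 fits that left out 1 array, with adjusted p values up to 0.163 and 0.130, and that of Elovl5 held in all 12. The quercetin-diet call of Elovl5 held in 7 of 12 (adjusted p up to 0.123). Scd1 missed the threshold without POR-null quercetin array 1 (adjusted p = 0.0503), and Elovl6 on that diet without wild-type quercetin array 2, where its adjusted p only just exceeded the threshold. In the average, Scd2 and Elovl2 held in 3 and 2 of the 12 fits, and Elovl5, Elovl6 and Scd1 in all 12.

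Among the 12 genes of precursor and NADPH supply, Pgd rose by 1.17 ± 0.20 on the quercetin diet (adjusted p = 0.0082). Pgd encodes the NADPH-producing dehydrogenase of the pentose phosphate pathway, and its 3 other probe sets were called as well. In the average Pgd, the acetyl-CoA synthetase Acss2 (0.52 ± 0.12) and the citrate synthase Cs (0.37 ± 0.10) were higher. Cs held in 3 of the 12 fits that left out 1 array. Of the 7 genes of malonyl-CoA and fatty acid handling, Acacb, the carboxylase of the mitochondrial surface whose malonyl-CoA restrains fatty acid oxidation, was higher in the average by 0.64 ± 0.12 (adjusted p = 0.00473). Acsl4, an acyl-CoA synthetase, was called on the control diet (0.70 ± 0.16), but its other 2 probe sets had the opposite sign and the call held in 2 of 12 fits. In the average it was higher by 0.49 ± 0.11 (adjusted p = 0.0152), held in all 12 fits, and had the opposite sign in 1 of the other probe sets. Oxsm, of mitochondrial fatty acid synthesis, was lower in the average (-0.31 ± 0.08) and held in 2 of 12.

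Of the 12 glycerolipid genes, Mogat1, a monoacylglycerol acyltransferase, was higher by 0.88 ± 0.15 on the quercetin diet (adjusted p = 0.00834), from levels below the median of all values. Of the 9 genes of sugar entry and glycolysis, Slc2a2, which encodes the hepatic glucose transporter GLUT2, was higher by 0.71 ± 0.12 on the control diet and 0.75 ± 0.12 on the quercetin diet (adjusted p = 0.0172 and 0.00677). Its control-diet call was lost when array 2 or 3 of wild-type control was omitted and when array 1 or 2 of POR-null control was, with adjusted p values up to 0.0896. Pgk1, phosphoglycerate kinase, was higher in the average by 0.28 ± 0.06.

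Of the 25 further regulators, Nr0b2 and Pparg were called on the quercetin diet. Nr0b2, which encodes the bile acid-induced repressor SHP, was lower by -1.36 ± 0.21 (adjusted p = 0.00544), and Pparg, a nuclear receptor that drives lipid storage genes, was higher by 0.67 ± 0.11 (adjusted p = 0.00851). On the control diet they differed by -0.87 ± 0.21 and 0.44 ± 0.11 (limma, adjusted p = 0.0606 and 0.0798). Both were called in the average (-1.11 ± 0.15 and 0.55 ± 0.08), in all 12 fits that left out 1 array. Hnf4a (-0.31 ± 0.07) and Prkab1, a subunit of the AMP-activated kinase (-0.32 ± 0.08), were lower in the average, the latter in 4 of 12 fits. The sterol-sensing genes Scap and Insig2 were not called in any genotype comparison.

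Of 12 genes that rise in fasting liver, Cpt1a, which admits fatty acids to mitochondria for oxidation, was higher on the control diet by 0.62 ± 0.10 (adjusted p = 0.0142). That call was lost when array 2 or 3 of wild-type control was omitted and when array 1 of POR-null control was, with adjusted p values up to 0.0731. In the average Cpt1a (0.51 ± 0.07), G6pc (0.50 ± 0.13) and Acadm (0.22 ± 0.06) were higher and Pck1 (-0.36 ± 0.10) was lower. G6pc, Acadm and Pck1 held in 7, 3 and 4 of the 12 fits. With each gene as the mean of its probe sets, 3 genes of this list were still called higher in the average, and 0 were lower.

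**Figure D4:**
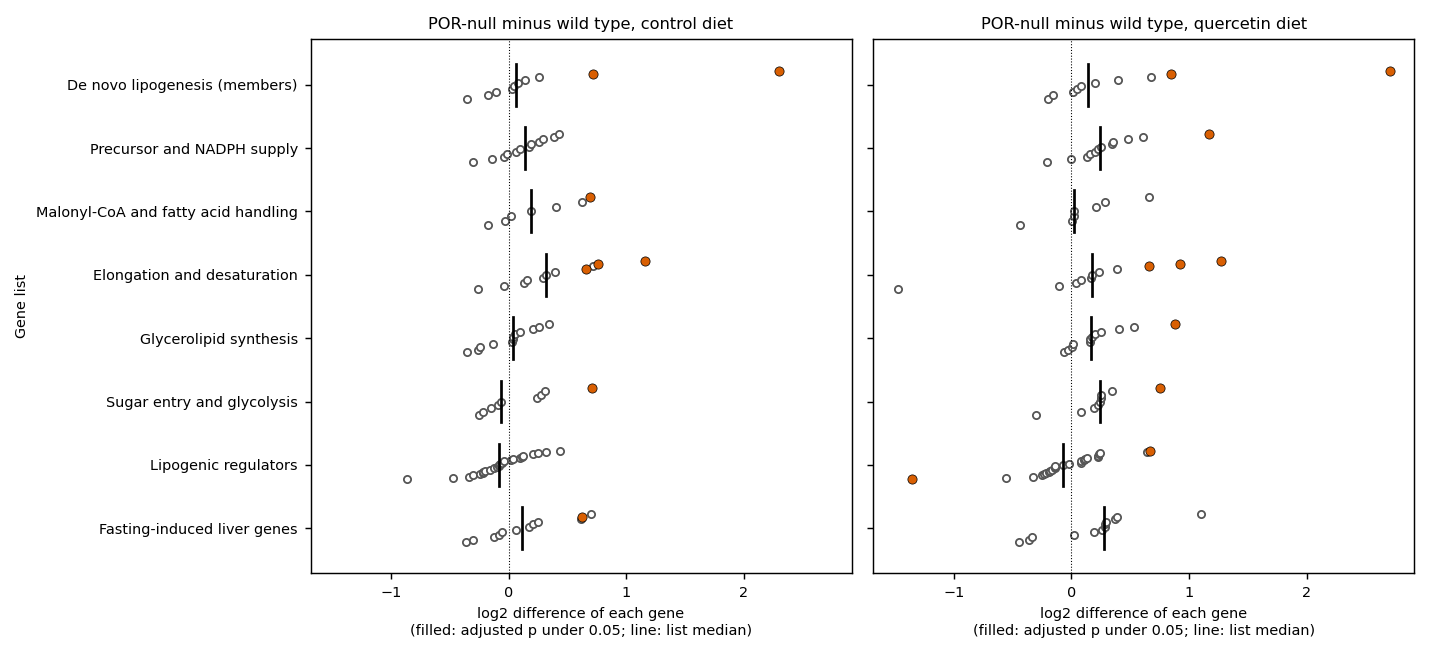
POR-null minus wild-type log2 difference (horizontal axis) of each measured gene in the 10 members and the 7 surrounding lists, on the control diet (left) and the quercetin diet (right), each gene by its brightest probe set. Filled points passed at an adjusted p under 0.05 and lines mark list medians; Thrsp lies farthest to the right in both panels, at 2.30 and 2.71.

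Quercetin gave no call in these lists. In wild-type livers the lowest adjusted p was that of Lpin2, a second lipin, which differed by -0.53 ± 0.11 (adjusted p = 0.263). Next came Aacs (-0.55 ± 0.14) and Elovl5 (0.55 ± 0.14), each with an adjusted p of 0.361. Scd1 (-0.64 ± 0.22), Pdk4 (-0.64 ± 0.22), Pgd (-0.52 ± 0.20), the transketolase Tkt (-0.42 ± 0.14) and Khk (-0.31 ± 0.13) also lay below 0. Elovl3 (0.97 ± 0.38), Insig2 (0.84 ± 0.30), Cpt1a (0.31 ± 0.10), Tpi1 (0.30 ± 0.10) and Scap (0.23 ± 0.09) lay above 0. None of them passed, and at an unadjusted p under 0.05 by limma 6 of the 88 were higher and 7 lower.

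The genes most like Thrsp 1424737_at across the 12 arrays were sought among 7385 genes with a brightest probe set above the overall median. The first 5 were Csrp3 (r = 0.96), Elovl6 (0.95), Cyp3a11 (0.95), Cyp2b10 (0.94) and Sec16a (0.94). After group means were removed, r was 0.76 for Csrp3, 0.84 for Elovl6, 0.48 for Cyp3a11, 0.33 for Cyp2b10 and 0.92 for Sec16a. The likeness of the pair of Cyp genes, which encode drug-metabolizing P450 enzymes, was thus mostly the difference between group means. Ranking by Spearman's rho instead kept 0 of these 5 among the first 5.

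For Pklr 1421258_a_at the most alike were Nadk (r = 0.95), Mif (0.94), Fkbp11 (0.94), Cox17 (0.94) and Ybx3 (0.93). Nadk encodes NAD kinase, which makes NADP. With group means removed the values were 0.87, 0.69, 0.75, 0.90 and 0.77. By Spearman's rho Mif and Cox17 remained among the first 5.

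Markers of other cell types were read beside these results. The mean of the 9 measured adipocyte markers was 6.72 to 6.89 in wild-type arrays and 6.92 to 7.26 in POR-null arrays, and Fabp4 (1.35) and Pparg (0.55) were called higher in the average. Adipoq and Lep, which define adipocytes, had means of 4.08 and 4.16, brighter than only 12.7% and 13.8% of probe sets, and were not called. The mean of 10 macrophage markers was 7.11 to 8.12 in wild-type and 7.67 to 7.99 in POR-null arrays, with Cd5l, Mpeg1, Lyz2 and C1qa called higher in the average. Clec4f (0.43), Vsig4 (0.43), Cd68 (0.37) and Csf1r (0.14) were not called. Marco (-0.43) and Adgre1 (-0.05) lay below 0 and were not called either. The mean of 9 exocrine pancreas markers ranged from 6.47 to 10.01 with 0 called. The difference between the 3′ and 5′ probe sets of a control transcript is a sign of RNA integrity. The transferrin receptor had means of 1.05 (control diet) and 1.18 (quercetin diet) in wild type, and 1.28 in both POR-null groups. In the same order, beta-actin averaged 0.92 and 0.84 in wild type, against 0.97 and 0.92 in POR-null livers. Gapdh averages were -0.19 and -0.17, against -0.15 and -0.16. On the quercetin diet the arrays of the genotypes overlapped for each control transcript, and on the control diet only for beta-actin. The part of these differences in the results for Thrsp and Pklr was not tested.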

How the data were processed

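The deposited values are log2 intensities of 22690 probe sets; MAS5 and RMA are named in the submitters' processing notes with no role, so the authors' summarization is not known. No further normalization was applied. After 64 control probe sets were left out, 22626 went into limma 3.58.1 (R 4.3.3), which fitted a mean for each of 4 groups over 12 arrays with an intensity trend in the variance prior and Benjamini-Hochberg adjustment. All tests were two-sided. Group values are mean ± SD and differences are given ± moderated SE. Groups came from the sample titles. The within-group correlation of arrays was 0.988 to 0.993, and 0 arrays were copies.

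The members and the gene lists were chosen with earlier results of these data known. Named list genes passed a contrast or were among the 3 lowest p values of their list. The alternatives left out the dimmest 40% of probe sets or each array in turn, or changed the normalization, the variance prior, the weights, the block, the groups fitted or the unit (gene means). The fits were tested on simulated data for the control-diet genotype comparison. Over 5 runs, 47% of differences of 0.5 and 93% of differences of 1 were called, with a mean of 8.6 false calls. Promoter windows came from RefSeq (GRCm38.p6). Figures were drawn with matplotlib 3.10.9. The number of arrays limits precision.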

Additional observations from a re-analysis of the deposited data

How the results depend on the processing

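The 5 member probe sets called on the control diet became 1 in a fit to the control-diet arrays alone and 1 to 5 when 1 array was left out, being 1 without POR-null control array 1 or 2 and 3 without wild-type control array 2 or 3. Over all probe sets the 262 calls fell to 30 in that fit, to 35 and 62 without those POR-null arrays and to 38 and 67 without those wild-type arrays. The 5 on the quercetin diet ranged from 5 to 6, and the 6 of the average from 5 to 7. Counted as gene means, 2, 2 and 3 genes were called, each of them also called by probe set. With the pool number as a replicate block the counts were 5, 5 and 7, and 0 for quercetin and for the difference between responses. Whether the numbers pair the pools was not settled. Same-numbered arrays of different groups deviated with r from -0.18 to 0.24, and 5 of 18 pairs exceeded 0.1. Pairs with different numbers ranged from -0.22 to 0.22. Quercetin counts of members were 0 under every setting tried, leave-one-out fits included (0 to 0). Among the genotype differences of Thrsp, Fasn, Me1 and Pklr, only the control-diet one of Me1 1430307_a_at changed sign, to -0.00033 without wild-type control array 3, within a leave-one-out range that reached 0.37. With gene means, the calls of the malonyl-CoA and the fasting list on the control diet went from 1 to 0, as did the single lower call of each in the average. On the quercetin diet the higher calls of the elongation list went from 3 to 2 and the lower calls of the regulators from 1 to 2. In the average the higher calls went from 5 to 6 for elongation, 3 to 2 for precursor supply and 2 to 1 for malonyl-CoA. Pools of mice hide the spread between animals, and values near the median of all probe sets, as of Acaca, can understate a change. The causes of these shifts were not tested.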

Other observations

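Lpin2, a member of the same gene family, ranked 6 of 7385 genes in its correlation with Lpin1 1426516_a_at once group means were removed (r = 0.90 over 12 arrays). It was singled out after its values were seen. In POR-null control livers Lpin2 read 10.67, 10.88 and 10.47, in the same order as Lpin1 at 9.52, 10.39 and 8.26. In the other groups its arrays stayed within a narrower range, from 10.73 to 10.89 in wild-type control, 10.20 to 10.37 in wild-type quercetin and 10.56 to 10.85 in POR-null quercetin livers. Suv39h2 (r = 0.95) and Kdr (r = -0.92), a histone methyltransferase gene and an endothelial receptor gene, were the closest in each direction. These are descriptions of 12 arrays, and a single array, the third of the POR-null control group, carries much of the spread of Lpin1.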
